A study of Mus musculus with 2 samples.

Results

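The collagen genes were examined on 2 Affymetrix arrays in mouse neonatal ventricular cardiomyocytes in primary culture (mNVCM). Members were all probe sets annotated to exactly 1 gene whose current or older symbol has the form of a collagen chain (Col, number, a, number, as in *Col1a1*). The rule used names only and no measured value. It found 43 of 18193 genes with 83 probe sets. Of these, 42 genes with 82 probe sets carry a collagen symbol today. The remaining one, *Tmem156*, was taken only because *Col28a1* is listed among its older symbols. *Col28a1* is also the current symbol of a separate gene, so *Tmem156* was kept out of the counts and medians. Its log2 value was 4.19 with hAFS-CMHypo + Dox and 3.91 with Dox. By class, 11 genes code for fibrillar collagens, 8 for basement membrane collagens, 9 for FACIT collagens and 14 for other collagens.

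The tested culture, hAFS-CMHypo + Dox, was pre-incubated for 3 h with medium conditioned by human amniotic fluid-derived stem cells and then exposed to 1 μM doxorubicin (Dox), whereas the Dox culture had no secretome. Both came from hearts of C57BL6/J mice at postnatal day 2, were grown for 48 to 72 h and were kept for 1 h in medium with 0.5% FBS before treatment. That the conditioning cells were kept in hypoxia is known from the paper's methods, in which hearts were digested with collagenase and the cells were seeded on gelatin, a denatured collagen. The sample labels give 6 h of Dox for hAFS-CMHypo + Dox and 21 h for Dox, the treatment protocol gives 6 h for both, and on the sample labels the pre-incubation and the hours of Dox cannot be told apart. There was 1 array per condition, so no value has a replicate error or a test, and every difference describes these 2 arrays. In these bulk cultures, fewer cells of a type and less RNA per cell cannot be told apart.

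Collagens are secreted proteins of the extracellular matrix in which chains with a glycine at regular steps wind into a rope-like trimer. Fibrillar collagens assemble into the cross-banded fibrils that give tissue its tensile strength, and collagens I and III make up most of those in the heart. Type IV collagen forms the sheet-like network of basement membranes, which surround each cardiomyocyte and underlie the endothelium. FACIT collagens (fibril-associated collagens with interrupted triple helices) sit on the surface of fibrils. In the heart, fibroblasts make most of the fibrillar collagen, and an excess of it is the hallmark of fibrosis.

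As a group, the collagen genes lay close to all genes, and single chains differed in both directions. *Col12a1* and *Col5a1* were higher with hAFS-CMHypo + Dox by 1.5-fold or more and *Col4a4* was lower by 1.5-fold or more, while the other 39 genes were within 1.5-fold. That is 4.76% of the collagen genes higher and 2.38% lower, beside 2.32% and 1.52% of all genes, so these shares rest on 3 genes. No collagen gene reached the 2-fold threshold that the paper's methods use, in either direction, beside 0.506% of all genes that were higher and 0.214% that were lower. The median log2 ratio, hAFS-CMHypo + Dox over Dox, was 0.02 over the 42 collagen genes and 0.01 over all genes. Of the collagen genes, 24 (57.1%) had a log2 ratio above 0, beside 51.2% of all genes.

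As a measure of how far probe sets of 1 gene scatter on these arrays, the SD of their log2 ratios was taken over 5007 genes with several probe sets at or above the median signal. It was 0.20, and 0.20 over the 15 collagen genes that qualified. It holds no variation between cultures. By more than this SD, 10 collagen genes (23.8%) were higher and another 4 (9.52%) lower, beside 19.4% and 17.2% of all genes. The higher share was near that of all genes and the lower share was smaller. Of the 29 collagen genes whose higher array reached the median of all values, 5.10, 8 (27.6%) lay above the band from -SD to SD and 3 (10.3%) below it, beside 20.9% and 17.9% of all genes at that signal, and 18 (62.1%) were above 0, beside 52.2%. For another 5 genes both arrays lay below the 25th percentile, 3.80, and they are not shown to be above background.

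**Figure D1:**
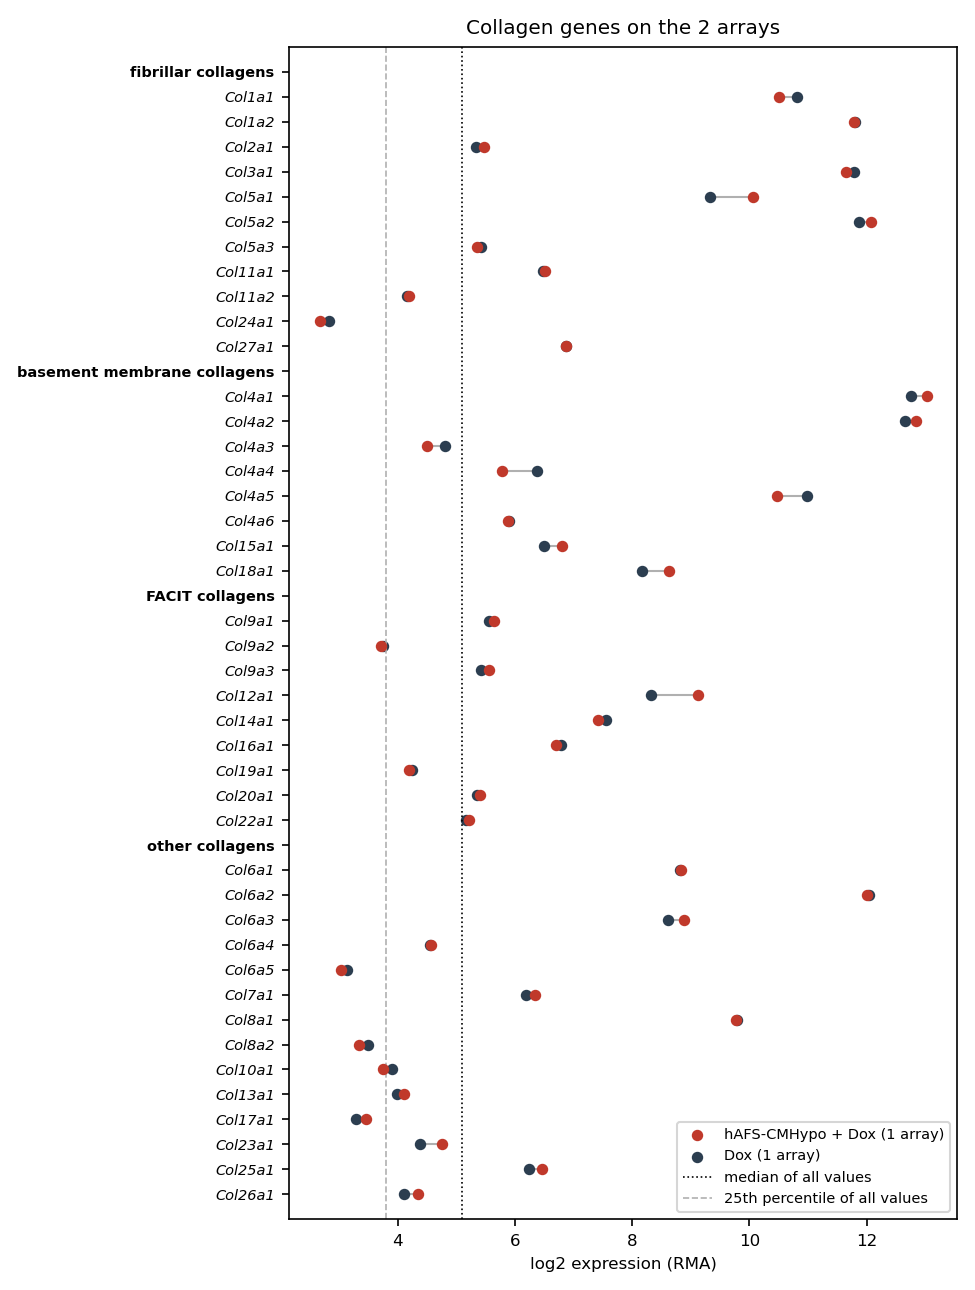
Log2 expression (RMA) of the 42 collagen genes on the hAFS-CMHypo + Dox array (red points) and the Dox array (dark points), with no replicates; each gene is shown by its brightest probe set. The widest gaps are those of *Col12a1*, *Col5a1*, *Col4a4* and *Col4a5*, while the points of *Col1a2*, *Col27a1* and *Col6a1* nearly coincide, and only the 2 points of 1 gene can be compared.

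Markers of cell types give the setting for these values. All 8 measured cardiomyocyte markers were lower with hAFS-CMHypo + Dox, 3 of them by more than the SD, with a summed level (log2 of the summed linear values) of 16.88 with hAFS-CMHypo + Dox against 17.00 with Dox. None of them was near background, the lowest being *Myh7* at 9.78 with hAFS-CMHypo + Dox and 10.05 with Dox. *Myl2* was the highest value of each array, 14.99 with hAFS-CMHypo + Dox and 15.05 with Dox. Its log2 ratio of -0.05 is thus the gap between the array maxima. Of 8 fibroblast markers outside the collagens, 3 lay above and 3 below the SD band, with summed levels of 13.07 with hAFS-CMHypo + Dox and 13.03 with Dox, and their log2 ratios ranged from *Pdgfra* at 0.79 to *Tcf21* at -1.03. Each of these had a probe set of the opposite sign, at -0.05 for *Pdgfra* and 0.18 for *Tcf21*. All 8 reached the median signal. The other lists were counted in the same way, beyond the SD. Over all genes, 19.4% lay above the SD band and 17.2% below it. At or above the median signal these shares were 20.9% and 17.9%. They stand beside the counts of every marker list, and with at most 8 genes in a list those counts are small. Of 7 markers of smooth muscle and mural cells, 3 were higher by more than the SD (summed level 14.81 with hAFS-CMHypo + Dox against 14.76 with Dox). Among these, *Pdgfrb* had a probe set at -0.03. Of 6 endothelial markers, 1 was higher and 1 lower (summed level 11.10 with hAFS-CMHypo + Dox against 11.06 with Dox). The higher one, *Vwf*, had signals below the median. Of 5 macrophage markers, 4 were higher (summed level 10.19 with hAFS-CMHypo + Dox against 9.83 with Dox). Among these, *Csf1r* and *Ptprc* each had a probe set below 0, at -0.14 and -0.09. Of 4 epicardial markers, 2 were higher and 2 lower (summed level 9.35 with hAFS-CMHypo + Dox against 9.81 with Dox). The lower *Upk3b* had another probe set at 0.04. Of 4 cartilage markers, 1 was higher (summed level 8.05 with hAFS-CMHypo + Dox against 7.96 with Dox), and *Matn1* lay below the 25th percentile on both arrays. The higher one, *Sox9*, had a probe set at -0.16. The part of these cell types in the collagen values was not tested.

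The fibrillar collagens had a median log2 ratio of 0.00, with 2 of 11 genes above the SD band and 1 below it, beside 19.4% and 17.2% of all genes. The same shares of all genes stand beside the counts of the other classes. *Col5a1* stood out among them, while the genes of collagens I and III had log2 ratios from -0.29 to -0.02. *Col5a1* codes for the α1 chain of collagen V, which starts fibrils and limits their width. Its log2 value was 10.06 with hAFS-CMHypo + Dox and 9.32 with Dox, a log2 ratio of 0.74, or 1.67-fold. Its rank by log2 ratio was 230 from the top. All 3 of its probe sets were higher, with log2 ratios of 0.74, 0.57 and 0.45. *Col5a2*, the partner chain in the same trimer, had values of 12.08 with hAFS-CMHypo + Dox and 11.87 with Dox. Its log2 ratio of 0.20 was just past the SD, and its other probe set had 0.23. The log2 ratio of *Col5a1* thus exceeded that of *Col5a2* by 0.53, and its lowest probe set lay above the higher one of *Col5a2*. *Col5a3*, another chain of collagen V found in a few tissues, had 5.34 with hAFS-CMHypo + Dox and 5.43 with Dox.

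Collagen I is a trimer of chains from *Col1a1* and *Col1a2*, and collagen III of chains from *Col3a1* alone. *Col1a1* had a log2 value of 10.51 with hAFS-CMHypo + Dox and 10.81 with Dox, a log2 ratio of -0.29. Its other probe set pointed the other way, with 7.86 for hAFS-CMHypo + Dox and 7.63 for Dox, so that the direction of *Col1a1* depends on the probe set. *Col1a2* had 11.79 with hAFS-CMHypo + Dox and 11.81 with Dox, and its other probe sets had log2 ratios of 0.14 and 0.15, all within the SD. *Col3a1* had 11.65 with hAFS-CMHypo + Dox and 11.78 with Dox, a log2 ratio of -0.13, and its other probe set had 0.03. *Col3a1* and *Col5a2* are neighbours on chromosome 1, and their log2 ratios differed by 0.34.

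The bases before the start sites are shown for *Col5a1*, the fibrillar gene with the largest difference, and for *Col1a2* and *Col3a1*, which stayed within the SD. They come from the RefSeq promoter table on GRCm38.p6, which holds 36 promoters of 33 of the 42 collagen genes. *Col1a1* and *Col12a1* are not among them. Only bases outside the annotated gene and on its plus strand are printed, 5′ to 3′. Capitals mark matches on either strand to the box of NF-Y (CCAAT), the box of the TATA-binding protein (TATAAA) or the site of AP-1 (TGANTCA).
Col5a1, chr2:27886175-27886380: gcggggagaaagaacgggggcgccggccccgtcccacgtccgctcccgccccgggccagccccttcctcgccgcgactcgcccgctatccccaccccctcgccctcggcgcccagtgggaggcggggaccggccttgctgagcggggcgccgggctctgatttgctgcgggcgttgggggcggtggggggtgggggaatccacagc
Col1a2, chr6:4505368-4505617: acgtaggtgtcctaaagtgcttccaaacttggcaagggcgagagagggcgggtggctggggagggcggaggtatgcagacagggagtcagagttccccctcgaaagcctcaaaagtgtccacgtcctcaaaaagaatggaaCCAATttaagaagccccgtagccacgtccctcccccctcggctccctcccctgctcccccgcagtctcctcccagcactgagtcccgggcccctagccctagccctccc
Col3a1, chr1:45311288-45311537: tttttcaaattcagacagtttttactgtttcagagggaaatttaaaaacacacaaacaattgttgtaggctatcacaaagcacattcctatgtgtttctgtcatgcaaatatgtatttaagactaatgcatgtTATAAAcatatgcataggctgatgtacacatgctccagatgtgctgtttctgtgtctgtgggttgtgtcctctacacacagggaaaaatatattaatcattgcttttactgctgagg
The *Col5a1* stretch holds none of the motifs and is rich in G and C (77.7% of its bases), that of *Col1a2* holds 1 CCAAT (62.0% G and C), and that of *Col3a1* holds 1 TATAAA (35.2%). Windows of 300 bases, from 250 before to 50 after the start, were searched. CCAAT occurred in 36.1% of collagen promoters and 37.4% of all promoters, TATAAA in 13.9% and 13.6%, and TGANTCA in 2.78% and 7.81%. The 2.78% stands for 1 of 36 collagen promoters, too few to compare shares. Over these windows, the median G and C content was 59.8% for the collagen promoters and 52.7% for all. The percentages of the printed stretches cover fewer bases and cannot be set against these medians. A match is a description of these letters and not a binding site.

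The remaining fibrillar genes were within the SD at the probe set used. *Col27a1* had 6.88 on both arrays, but its other probe set had 5.23 with hAFS-CMHypo + Dox and 4.84 with Dox, a log2 ratio of 0.40. The collagen genes of cartilage fibrils, *Col2a1*, *Col11a1* and *Col11a2*, had log2 ratios of 0.12, 0.02 and 0.02. *Col24a1* lay below the 25th percentile on both arrays, at 2.66 with hAFS-CMHypo + Dox and 2.83 with Dox.

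**Figure D2:**
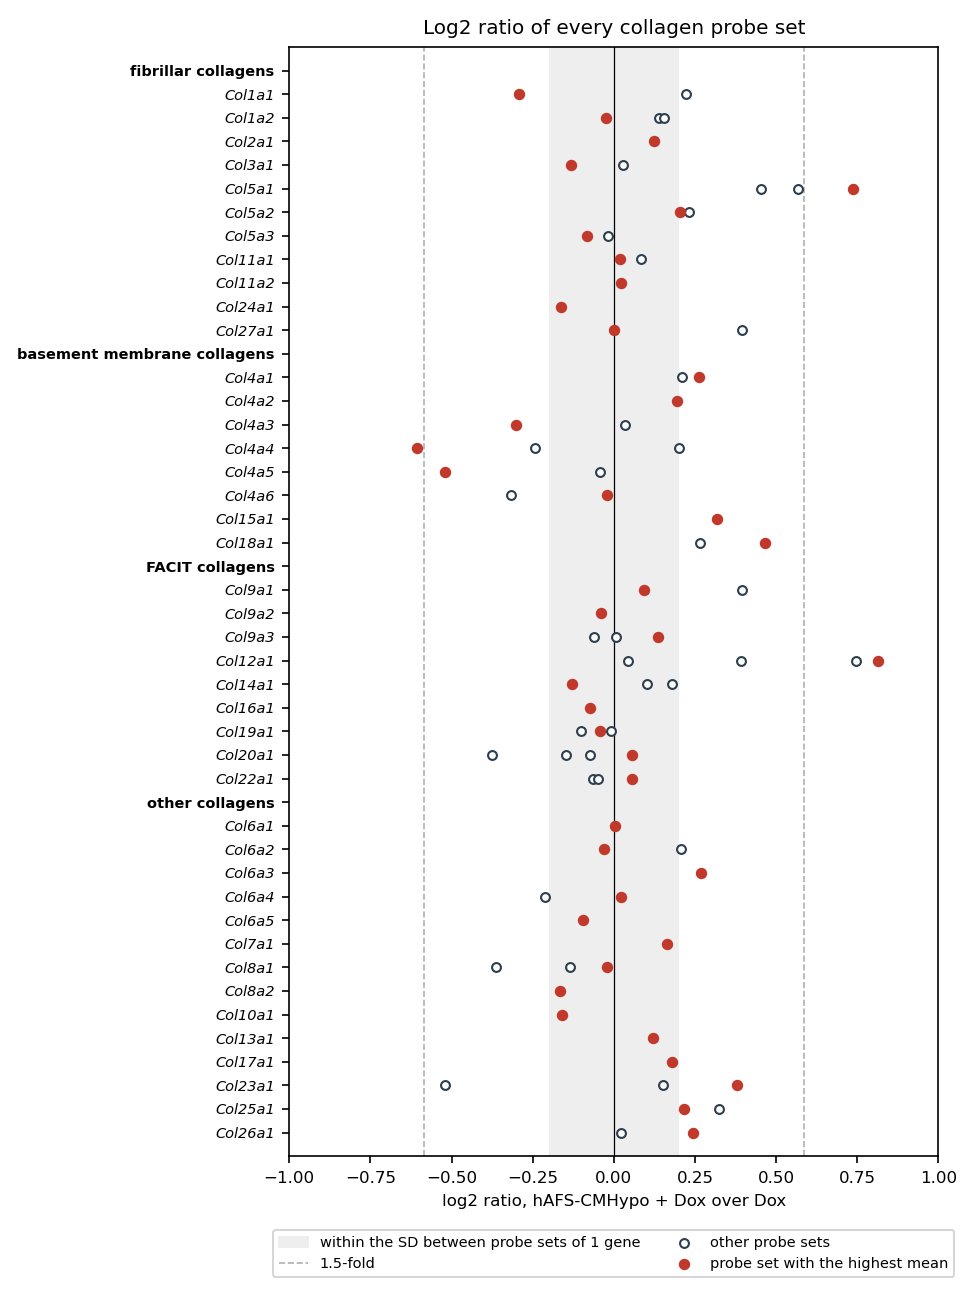
Log2 ratio (hAFS-CMHypo + Dox over Dox) of all 82 collagen probe sets by gene and class. Red points are the probe sets with the highest mean, open points the others, the grey band is the SD between probe sets of 1 gene and the dashed lines mark 1.5-fold; the points of *Col5a1* and *Col18a1* all lie to the right of the band, and those of *Col1a1* lie on opposite sides of it.

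In the basement membrane class, 3 of 8 genes lay above the SD band and 3 below it, with a median log2 ratio of 0.09. The class held the multiplexins *Col15a1* and *Col18a1*, which lie in the basement membrane zone, beside the 6 type IV chains. *Col4a1* and *Col4a2* code for the chains of the type IV collagen found in nearly all basement membranes, and they lie head to head on chromosome 8. *Col4a1* had 13.03 with hAFS-CMHypo + Dox and 12.76 with Dox, a log2 ratio of 0.26, and its other probe set had 0.21. *Col4a2* had 12.85 with hAFS-CMHypo + Dox and 12.65 with Dox, a log2 ratio of 0.19 from its only probe set, just within the SD. The log2 ratios of these partners differed by 0.07, less than the SD.

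The other type IV chains, which build the networks of special membranes such as that of the kidney glomerulus, had log2 ratios below 0 at the probe set used, from -0.61 to -0.02. *Col4a5* had 10.47 with hAFS-CMHypo + Dox and 10.99 with Dox, a log2 ratio of -0.52. Its other probe set, at 9.86 with hAFS-CMHypo + Dox and 9.90 with Dox, had only -0.04. *Col4a4* had 5.78 with hAFS-CMHypo + Dox and 6.38 with Dox, the lowest log2 ratio of all collagen genes at -0.61. That value was past 1.5-fold at 1 of its 3 probe sets, and the others had -0.24 and 0.20. The mean over the 3 was -0.22. *Col4a3*, which lies head to head with *Col4a4* on chromosome 1, had 4.50 with hAFS-CMHypo + Dox and 4.80 with Dox, both below the median signal, and its other probe set had 0.03. *Col4a6*, the neighbour of *Col4a5* on chromosome X, had 5.87 with hAFS-CMHypo + Dox and 5.89 with Dox, and its other probe set had -0.32. Over the 6 type IV genes the median log2 ratio was -0.16, with *Col4a1* and *Col4a2* as the 2 genes above 0.

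Both multiplexin genes were higher. *Col18a1*, whose protein carries the anti-angiogenic fragment endostatin at its end, had 8.64 with hAFS-CMHypo + Dox and 8.17 with Dox. Its log2 ratio was 0.47, or 1.38-fold, and its other probe set had 0.27. *Col15a1*, which codes for a related chain that anchors basement membranes to the fibrils beneath and is known in mice to matter for capillaries and muscle, had 6.81 with hAFS-CMHypo + Dox and 6.49 with Dox, a log2 ratio of 0.32 from its only probe set.

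Among the FACIT collagens, *Col12a1* was the 1 gene of 9 outside the SD, and the class median was 0.06. *Col12a1* codes for the chain of collagen XII, which bridges collagen I fibrils in tissues under load. Its log2 value was 9.13 with hAFS-CMHypo + Dox and 8.31 with Dox, a log2 ratio of 0.82, or 1.76-fold, at rank 169 of all genes from the top. The second probe set by mean had 7.03 with hAFS-CMHypo + Dox and 6.64 with Dox, the third 5.01 and 4.27, and the fourth, below the 25th percentile on both arrays, 3.25 and 3.21. The log2 ratios of these 3 were 0.39, 0.75 and 0.04, so that the 2 largest came from different signal ranges and the probe set without a difference from the lowest. The mean over the 4 probe sets was 0.50, which is within 1.5-fold.

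*Col14a1*, which codes for the closest relative of collagen XII, had 7.42 with hAFS-CMHypo + Dox and 7.55 with Dox, and its 3 probe sets ranged from -0.13 to 0.18. *Col16a1* had a log2 ratio of -0.07. The genes of collagen IX, a FACIT of cartilage, had 0.09 for *Col9a1*, -0.04 for *Col9a2* and 0.14 for *Col9a3*, whose other probe sets had 0.01 and -0.06. At *Col9a1* the other probe set had 0.39, with 4.63 for hAFS-CMHypo + Dox and 4.23 for Dox, below the median signal. *Col20a1* had 0.06 and its other 3 probe sets reached down to -0.38. *Col19a1* and *Col22a1* had -0.04 and 0.06.

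The 14 other collagens had a median log2 ratio of 0.07, with 4 above the SD band and none below it, and 6 of them reached the median signal. Collagen VI forms beaded filaments that link cells to the matrix around them, and its trimer joins the chains of *Col6a1*, *Col6a2* and *Col6a3*. *Col6a3* had 8.89 with hAFS-CMHypo + Dox and 8.62 with Dox, a log2 ratio of 0.27 from its only probe set. *Col6a1* had 8.82 on both arrays, a log2 ratio of 0.00. *Col6a2* had 12.00 with hAFS-CMHypo + Dox and 12.03 with Dox, while its other probe set had 0.21. The log2 ratio of *Col6a3* was thus above those of its partners by 0.27 and 0.30, whereas *Col6a1* and *Col6a2* differed by 0.03. With the mean of both *Col6a2* probe sets the gap of *Col6a2* and *Col6a3* was 0.18, within the SD.

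*Col8a1*, whose chain forms hexagonal networks under the endothelium, had 9.77 with hAFS-CMHypo + Dox and 9.79 with Dox, and all 3 of its probe sets were below 0, down to -0.36. *Col8a2* lay below the 25th percentile on both arrays. *Col25a1*, a transmembrane collagen, had 6.45 with hAFS-CMHypo + Dox and 6.24 with Dox, a log2 ratio of 0.22, with 0.32 at its other probe set. *Col7a1*, the collagen of anchoring fibrils in skin, had 0.16. *Col23a1* and *Col26a1* were past the SD, at 0.38 and 0.24, with signals below the median. For *Col23a1* the 3 probe sets ranged from -0.52 to 0.38. For *Col6a4* the probe sets had 0.02 and -0.21. Together with *Col6a5*, *Col10a1*, *Col13a1* and *Col17a1*, it had at the probe set used a log2 ratio from -0.16 to 0.18, and none of these 5 reached the median signal.

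**Figure D3:**
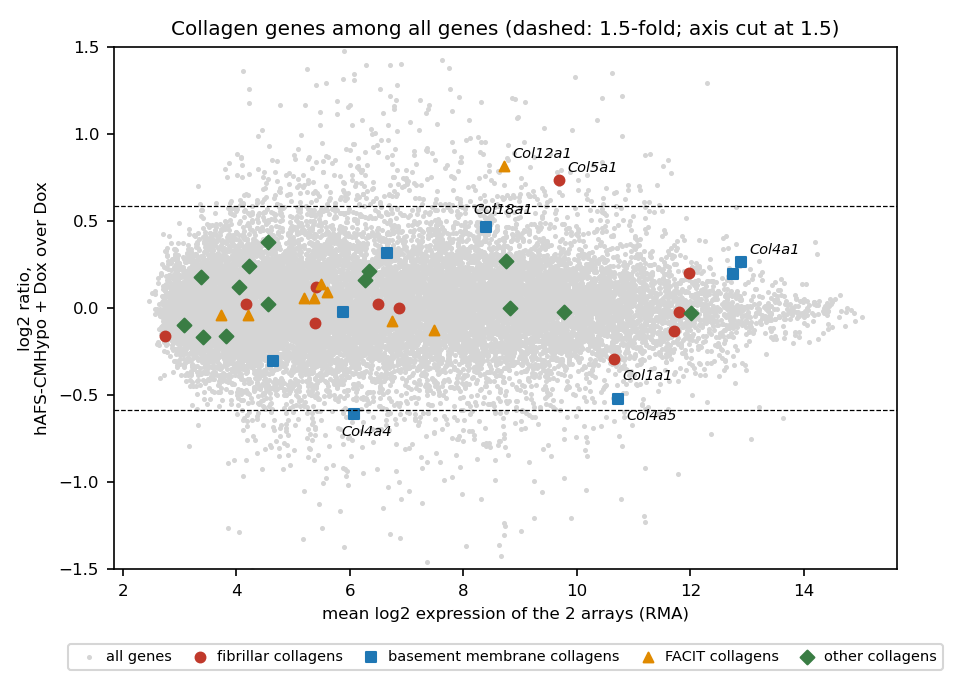
Log2 ratio (hAFS-CMHypo + Dox over Dox) against the mean log2 expression of the 2 arrays for all genes (grey) and the 42 collagen genes (coloured by class); 33 genes lie outside the plotted range. *Col12a1* and *Col5a1* lie above the upper 1.5-fold line and *Col4a4* below the lower one, while the other collagen genes lie between the lines.

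How well probe sets of 1 gene matched bears on each of these values. Of the 42 genes, 15 had 1 probe set and 27 had several, at most 4. In 15 of the 27 all probe sets had the same sign, 10 above 0 and 5 below. In 9 of the 27, or 33.3%, they lay on both sides of 0 and further apart than the SD, beside 45.5% of all genes with several probe sets. In none were they more than 1 log2 unit apart. Collagen messages are long and the array reads mainly their 3′ ends, so RNA quality could enter. For *Actb* the 3′ control probe set exceeded the 5′ one by 0.47 with hAFS-CMHypo + Dox and 0.57 with Dox on the log2 scale, and for *Gapdh* the difference was -0.12 and -0.09. The part of this in the collagen values was not tested.

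Partner chains, which share a trimer or lie next to each other on a chromosome, were set side by side in 14 pairs. At the probe sets used, the log2 ratios were within the SD of each other in 7 pairs and further apart in 7. The SD is that of single log2 ratios, and a gap between a pair of them scatters more widely. A gap past the SD is therefore not by itself a difference between the chains. No share was computed for pairs of unrelated genes, so the 7 of 14 pairs have nothing to stand beside. With the mean of all probe sets of a gene, 5 pairs were further apart. Averaging could not change the gap of *Col6a1* and *Col6a3*, which have 1 probe set each. Besides that pair, only *Col5a1* with *Col5a2* and *Col5a2* with *Col3a1* were further apart than the SD in both ways. *Col5a1* and *Col5a2* had the widest gap in both, 0.53 at the probe sets used and 0.37 with the mean. The gap of *Col4a5* and *Col4a6* was 0.50 at the probe sets used and 0.11 with the mean, and that of *Col1a1* and *Col1a2* was 0.27 and 0.13. The mean moved *Col9a1* apart from *Col9a2* and *Col9a3*, by 0.28 and 0.22. The pairs within the SD at the probe sets used were *Col4a1* with *Col4a2*, *Col6a1* with *Col6a2*, *Col8a1* with *Col8a2*, *Col11a1* with *Col11a2*, and the 3 pairs of collagen IX chains. Of these genes, *Col8a2*, *Col9a2* and *Col11a2* had signals below the median.

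Genes that modify, export, cleave, crosslink, break down or bind collagen, or inhibit its breakdown, were measured beside the chains themselves. Of 54 measured genes of these lists, 23 (42.6%) exceeded the SD upwards and 4 (7.41%) downwards, beside 19.4% and 17.2% of all genes, and the median log2 ratio was 0.16, beside 0.01 over all genes. For the collagen genes the counts were 10 and 4 of 42. With the mean of all probe sets of a gene, 20 of the 54 exceeded the SD upwards and 4 downwards. No share of all genes was computed with that mean, so these counts have nothing to stand beside. At 2-fold, 3 of the 54 genes (5.56%) were higher and none was lower, beside 0.506% and 0.214% of all genes. Of these, *Tll1* and *Timp1* belong to the genes that the study chose on these arrays. The other, *Creb3l1*, passed the same threshold on the same arrays. None of the 3 is independent evidence of a direction. All 3 are also among the 23 genes that exceeded the SD upwards.

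Within the endoplasmic reticulum, prolines and lysines of the chains are hydroxylated and the trimer is folded. Of 17 measured genes of this step, 5 lay above and 1 below the SD band (median 0.08), the lower one being *Plod1* at the edge of the SD. *Fkbp14*, a prolyl isomerase, had the largest log2 ratio, 0.43, but its other probe set had -0.12. *Colgalt2*, which adds galactose, had 0.38, *P4ha2*, a prolyl hydroxylase subunit, had 0.34, and *Plod2*, a lysyl hydroxylase, had 0.31, with -0.26 at its other probe set. *Serpinh1*, the collagen chaperone HSP47, had 12.96 with hAFS-CMHypo + Dox and 13.10 with Dox, within the SD.

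For export, 4 of 7 genes were higher by more than the SD and none was lower (median 0.20), beside 19.4% and 17.2% of all genes. The same shares stand beside the counts of each other step. *Creb3l1*, a transcription factor of the secretory pathway that is known in mouse bone to act on *Col1a1*, had 8.07 with hAFS-CMHypo + Dox and 7.02 with Dox, a log2 ratio of 1.06 from its only probe set. Its relative *Creb3l2* had 0.36, and *Sec23a* and *Sec24d*, coat proteins of the vesicles that leave the endoplasmic reticulum, had 0.33 and 0.20. The value of *Sec24d* lay at the edge of the SD. Outside the cell, *Bmp1* and *Tll1* code for proteases that trim procollagen. *Tll1* had 6.51 with hAFS-CMHypo + Dox and 4.94 with Dox. *Bmp1* had 0.26, with up to 0.68 among its 3 probe sets. The enhancer genes *Pcolce* and *Pcolce2* had -0.09 and -0.10, and of the 6 measured genes of the list, 2 lay above the SD band and 1 below it (median 0.04). The lower one, *Tll2*, had -0.39, with both arrays below the 25th percentile.

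All 4 measured genes of the lysyl oxidase family, which crosslinks collagen and elastin, were higher by more than the SD (median 0.57), beside 20.9% of all genes at or above the median signal, where all 4 lay. *Lox* had 11.74 with hAFS-CMHypo + Dox and 10.85 with Dox, a log2 ratio of 0.89, and its 3 probe sets reached down to 0.17. *Loxl3* had 0.59 from its only probe set, *Loxl4* had 0.55 with -0.45 at its other probe set, and *Loxl1* had 0.28 with -0.02 at its other. The list of breakdown and uptake held 11 genes, among them the metalloproteinase inhibitors *Timp1*, *Timp2* and *Timp3*. Of the 11, 6 lay above the SD band and none below it (median 0.23), beside 19.4% above and 17.2% below for all genes. Among the 6, *Timp1* and *Timp3* code for inhibitors, and *Mmp13* and *Fap* had signals below the median. The 6 are therefore not a count of genes that break collagen down. *Timp1*, an inhibitor of metalloproteinases, had 12.94 with hAFS-CMHypo + Dox and 11.65 with Dox. *Mmp9*, a gelatinase, had 0.77, with 0.09 at its other probe set. Its values were 5.31 with hAFS-CMHypo + Dox and 4.54 with Dox, so it reached the median signal only with hAFS-CMHypo + Dox. *Timp3* had 0.32. *Timp2* had -0.10, within the SD, and all 6 of its probe sets were below 0, down to -0.71.

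Of 9 measured collagen receptors, 2 lay above and 2 below the SD band (median 0.04). The higher ones, *Itga2* and *Gp6*, had signals below the median. *Ddr2*, a receptor kinase for fibrillar collagen that is also a fibroblast marker, had 7.53 with hAFS-CMHypo + Dox and 8.28 with Dox, a log2 ratio of -0.75, but its other probe set had -0.05. *Itga1*, the α1 integrin chain that binds collagen, had 8.33 with hAFS-CMHypo + Dox and 8.75 with Dox, and its probe sets had -0.42 and -0.40.

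**Figure D4:**
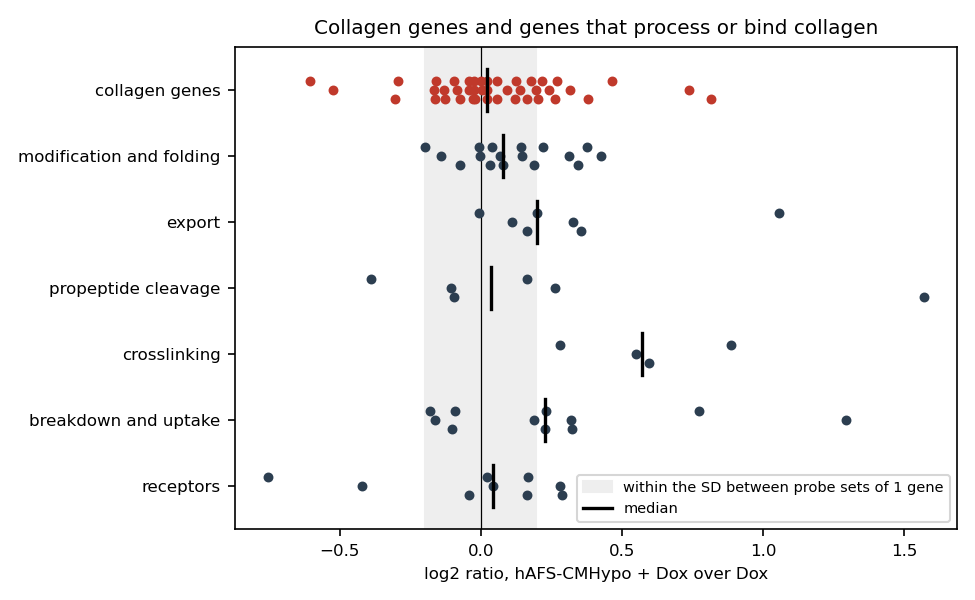
Log2 ratio (hAFS-CMHypo + Dox over Dox) of the 42 collagen genes (red) and of the measured genes that process or bind collagen (dark), 1 point per gene, with the median of each list (black bar) and the SD between probe sets of 1 gene (grey band). All 4 crosslinking genes lie to the right of the band, and the median of the collagen genes lies near 0.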

How the data were processed

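The authors hybridised 1 Affymetrix mouse array per condition and deposited log2 values per probe set, made by RMA with quantile normalization; the log2 scale was taken from their range, 2.37 to 14.99 for hAFS-CMHypo + Dox and 2.39 to 15.05 for Dox, with the software not given in the sources used here. RMA was named in the submitters' processing notes. Symbols of the platform annotation were replaced by those that RefSeq (GRCm38.p6) gives for the same Entrez ID, which matched 34754 of 34958 probe sets with 1 gene. *Col6a6* and *Col28a1* had no probe set with their symbol and were not analysed here. Of 59 genes of the processing and receptor lists, 54 were measured.

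Each gene took its brightest probe set (highest log2 value averaged over both arrays). Differences are log2 ratios, counted at 1.5-fold, at 2-fold and beyond the SD between probe sets of 1 gene. With 1 array per condition no test was made, and precision is limited by the number of arrays. Genes were described in full when past 1.5-fold, past the SD with signal at or above the median, split in sign between probe sets, or partner chains. Of each processing list, up to 4 with the largest log2 ratios at that signal were named. Others (*Serpinh1*, *Gp6*, *Itga2*, *Plod1*, *Tll2*, *Mmp13*, *Fap* and *Timp2* among them) were named for their role or count after values were seen. Members and lists were chosen with earlier results of these data known. The counting steps were tested on simulated data. Work was done in Python 3.11.15 (pandas 2.3.3, numpy 2.4.6), with statsmodels 0.14.6 for lowess and figures from matplotlib 3.10.9.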

Additional observations from a re-analysis of the deposited data

How the results depend on the processing

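The alternatives were to average a gene's probe sets or to take the one with the largest change, signal filters at the median and the 25th percentile, centring, lowess on mean expression (span 0.3), leaving out the less specific probe sets, the multiplexins counted with the other collagens and, chosen after seeing the data, *Tmem156* included and the averaging of probe sets for partner pairs and processing genes. Of 90 recomputed counts and medians, 5 moved. With the mean of all probe sets, 1 collagen gene was higher and 0 were lower by 1.5-fold, and 2 were lower by more than the SD. With the probe set of largest change, 9 were lower by more than the SD. No share of all genes was computed under either setting, so these counts have nothing to stand beside. Without the multiplexins, the basement membrane median was -0.16. With the mean of all probe sets *Col12a1* had a log2 ratio of 0.50, *Col4a5* of -0.28, *Col4a4* of -0.22 and *Col1a1* of -0.04. Of 272 values of single genes, 19 moved by more than the SD, all under the choice of probe set and in 14 genes. The signal filters left the values of kept genes unchanged, and centring shifted all values by the same small amount. Values under these settings could therefore not move. The sign differed from that of the main setting in 21 of the 272 values, in 10 genes. No paired analysis was possible because there was 1 array per condition, and no array could be left out for the same reason. The arrays give no depth.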
